A study of Mus musculus with 4 samples.

Results

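The Notch pathway was followed in 10 genes, which were chosen by symbol among the 32285 features of the count tables: the ligand genes *Dll1*, *Dll4*, *Jag1* and *Jag2*, the receptor genes *Notch1*, *Notch2* and *Notch3*, and the target genes *Hes1*, *Hey1* and *Heyl*. All 10 symbols matched exactly 1 feature each. The transcripts came from single cells of leg muscles of littermate mouse fetuses at E18.5, taken from heterozygous mothers. Of the 4 libraries, 2 were wild type (WT) and 2 were knockout (KO) for the long non-coding RNA *SYISL*, whose gene lies within *Synpo2*. The study compared the genotypes to learn how the loss of *SYISL* alters the formation of muscle fibers. How many fetuses entered each library, their sex and strain, and whether replicates were separate fetuses was not stated in the labels, so spreads and p-values measure the difference between libraries only. No feature carries the name *SYISL*, so the knockout could not be checked at its target.

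Notch signaling passes between neighboring cells: a Delta or Jagged ligand on the surface of a cell activates a receptor on its neighbor, the receptor is cut by proteases, and its intracellular domain joins RBPJ in the nucleus to switch on target genes of the Hes and Hey families. In developing muscle the pathway is known for keeping *Pax7*-expressing progenitors undifferentiated, and in vessels for arterial identity and for the coating of endothelium by mural cells (pericytes and smooth muscle). A transcript level does not show whether a receptor has been activated.

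The promoters of 3 members are shown because their genes mark the patterns described below: *Dll1* rose along myogenesis, *Notch3* fell most, and *Dll4* was the ligand most restricted to endothelium. Each line holds the 250 bases before a RefSeq transcript start (GRCm38.p6), read 5′ to 3′ on the strand of the gene, with matches to the E-box CAGCTG, a form bound by myogenic basic helix-loop-helix factors, in capitals. The *Dll1* promoter lies at chr17:15376933-15377182 (minus strand), that of *Notch3* at chr17:32166891-32167140 (minus) and that of *Dll4* at chr2:119325534-119325783 (plus).
Dll1: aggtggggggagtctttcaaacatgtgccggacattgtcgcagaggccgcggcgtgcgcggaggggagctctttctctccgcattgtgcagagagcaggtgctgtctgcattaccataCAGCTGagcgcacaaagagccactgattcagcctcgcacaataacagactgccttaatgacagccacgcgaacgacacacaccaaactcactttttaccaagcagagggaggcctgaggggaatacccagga
Notch3: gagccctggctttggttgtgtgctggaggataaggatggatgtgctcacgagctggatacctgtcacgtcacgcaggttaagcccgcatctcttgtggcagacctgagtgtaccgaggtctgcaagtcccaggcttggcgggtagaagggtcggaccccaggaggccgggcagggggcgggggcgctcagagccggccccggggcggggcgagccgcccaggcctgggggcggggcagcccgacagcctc
Dll4: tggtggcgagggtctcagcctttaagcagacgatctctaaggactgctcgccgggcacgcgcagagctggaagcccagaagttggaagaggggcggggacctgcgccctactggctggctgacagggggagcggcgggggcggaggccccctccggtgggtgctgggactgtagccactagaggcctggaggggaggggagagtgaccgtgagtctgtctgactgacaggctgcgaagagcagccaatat
CAGCTG, which reads the same on both strands, was found in 13.0% of 32851 promoter windows of this length. It stood 132 bases before the start of *Dll1* and 82 bases before that of *Jag1*, and in none of the other 6 windows of members, which include a second start of *Dll1*. The RBPJ motif GTGGGAA, searched also as TTCCCAC, was present in 5.42% of all windows and in 0 of the 8 windows of members. The windows cover 7 of the 10 genes. Of the windows not printed, those of *Jag1* and *Notch2* reach into the annotated gene. Those of *Notch1*, of *Jag2* and of the second start of *Dll1* lie inside it. *Hes1*, *Hey1* and *Heyl* were not in the promoter table used here. These matches describe letters in a window and say nothing of binding.

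After filtering, 36969 of 41741 cells were kept, with a median of 9118 to 11427 UMIs (unique molecular identifiers, 1 per captured transcript) per cell in the 4 libraries. Libraries shared 21 to 41 cell barcodes, at most 0.430% of the smaller library. KO replicate 2 stood apart from the rest. A UMI of a Y-linked gene was found in 85.8 to 89.9% of the cells of 3 libraries and in 1.00% of the cells of KO replicate 2. A UMI of the sex-linked *Xist* was found in 98.2% of its cells and in at most 0.0587% of those of any other library. Cells were clustered with the 10 genes and 43 further pathway genes left out, and clusters were assigned to 10 classes from marker genes, of which 6 of 8 (neutrophil-like) to 11 of 11 (smooth muscle or pericyte-like) passed. For *Synpo2*, the host gene of *SYISL*, the level was 10.4 and 10.3 UMIs in 1000000 for WT, beside 10.9 and 9.03 for KO. A cluster of 1366 cells led by *Ccl11* and *Hhip* carried markers of both fibro-adipogenic progenitors (FAPs) and mural cells and kept no class name, and it is called the *Ccl11* cluster here.

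Levels are in CPM, that is, counts in 1000000 UMIs of that class in that library, and as mean ± SD over the 4 libraries (n = 4). Gene positions in parentheses are those in GRCm38. Levels describe 1 gene across classes and were not compared between genes. Neighbors in an order are said not to differ beyond their spread where their ranges over the libraries overlap. The ligands divided between cell classes. *Dll1* was a ligand transcript of myogenic-like cells, *Dll4* and *Jag2* were endothelial, and *Jag1* was spread over mesenchyme and vessels.

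*Dll1* (ENSMUSG00000014773, chromosome 17, 15367354 to 15376872, minus strand), a Delta ligand, stood at 27.5 and 25.1 CPM in myogenic-like cells of WT and at 29.3 and 25.7 CPM in those of KO (26.9 ± 1.87). Endothelial-like cells came next with 9.23 ± 1.74 CPM, without overlap, and every other class averaged at most 1.62 CPM. Myogenic-like cells held 82.2 ± 1.38% of its UMIs.

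*Dll4* (ENSMUSG00000027314, chromosome 2, 119325784 to 119335962, plus strand), the Delta ligand best known from arterial and sprouting endothelium, stood at 73.1 and 89.1 CPM in endothelial-like cells of WT and at 74.0 and 77.1 CPM in those of KO (78.3 ± 7.39). Smooth muscle or pericyte-like cells had 2.72 CPM, and the other classes at most 0.693 CPM. Endothelial-like cells were 1327 of the kept cells and held 86.5 ± 2.19% of its UMIs. With each cell thinned to 2000 UMIs, 13.7% of endothelial-like cells had a *Dll4* UMI (median depth before thinning 9288 UMIs), against 0% of macrophage-like cells (10647 UMIs) and 0.0548% of myogenic-like cells (9913 UMIs).

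*Jag2* (ENSMUSG00000002799, chromosome 12, 112907819 to 112929776, minus strand) was likewise highest in endothelial-like cells, with 52.1 and 50.6 CPM in WT and 41.6 and 49.4 CPM in KO (48.5 ± 4.70). Myogenic-like cells followed at 2.47 CPM. *Jag2* UMIs lay to 64.2 ± 5.10% in endothelial-like and to 15.8 ± 0.772% in myogenic-like cells.

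*Jag1* (ENSMUSG00000027276, chromosome 2, 137081456 to 137116644, minus strand) was high in 3 classes. In the *Ccl11* cluster it stood at 121, 113, 108 and 111 CPM (WT replicates 1 and 2, then KO replicates 1 and 2, an order kept throughout), and in smooth muscle or pericyte-like cells at 111, 103, 122 and 105 CPM. In endothelial-like cells the libraries read 106, 77.6, 51.2 and 98.3 CPM, with KO replicate 1 lowest. Smooth muscle or pericyte-like cells did not differ beyond their spread from either of the others, whereas the libraries of the *Ccl11* cluster all lay above those of endothelial-like cells. FAP-like cells had only 32.6 ± 2.18 CPM, but as the most numerous class (17446 cells) they held 45.4 ± 2.35% of the *Jag1* UMIs. Myogenic-like cells stood lower, at 18.2 ± 1.65 CPM.

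**Figure D1:**
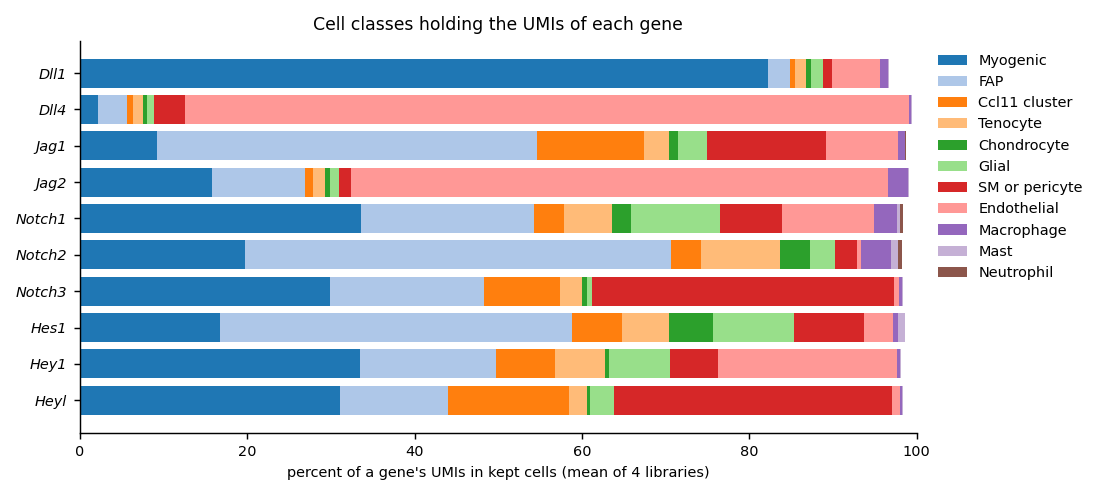
Share of the UMIs of each gene (percent, mean of 4 libraries) that fell in each cell class, with 1 bar per gene and the remainder up to the full axis in unnamed cells. Myogenic-like cells held 82.2% of *Dll1* and endothelial-like cells 86.5% of *Dll4*, while FAP-like cells held the largest share of *Jag1* (45.4%) and *Notch2* (50.9%).

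The receptors were found in more classes than the ligands. *Notch1* led in endothelial-like cells, *Notch2* was broad but low in endothelium, and *Notch3* was a receptor transcript of mural and myogenic-like cells.

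*Notch1* (ENSMUSG00000026923, chromosome 2, 26457903 to 26516663, minus strand) stood at 165, 149, 150 and 163 CPM in endothelial-like cells (157 ± 8.54). Neutrophil-like (105 ± 16.7), glial-like (101 ± 3.87) and myogenic-like cells (99.3 ± 2.79) came next and did not differ beyond their spread. The neutrophil-like level rests on 34, 22, 7 and 8 UMIs. Lower levels were seen in smooth muscle or pericyte-like (86.9 ± 4.63), macrophage-like (44.2) and FAP-like cells (22.3).

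*Notch2* (ENSMUSG00000027878, chromosome 3, 98013527 to 98150361, plus strand) was highest in neutrophil-like cells, at 202, 204, 247 and 168 CPM, but these rest on 65, 41, 21 and 11 UMIs. Tenocyte-like cells followed with 97.5, 98.1, 88.1 and 97.9 CPM, and macrophage-like (83.7) and myogenic-like cells (82.6 ± 4.27) overlapped with them or with each other. Endothelial-like cells were lowest, at 8.16, 6.67, 8.46 and 15.8 CPM, below every library of every other class.

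*Notch3* (ENSMUSG00000038146, chromosome 17, 32120820 to 32166852, minus strand), the receptor that smooth muscle and pericytes are known for, stood at 509, 495, 495 and 415 CPM in smooth muscle or pericyte-like cells (478 ± 42.6). The *Ccl11* cluster followed with 137 ± 9.89 CPM, and myogenic-like cells with 101, 108, 104 and 88.0 CPM (100 ± 8.80). These 3 classes did not overlap, and all others averaged at most 23.2 CPM. After thinning, 57.0% of smooth muscle or pericyte-like cells had a *Notch3* UMI (median depth 9702 UMIs), against 17.2% of myogenic-like and 0.530% of macrophage-like cells.

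Each target followed its own set of classes. *Hes1*, a transcriptional repressor that responds to Notch and to other signals, was present in all classes but low in macrophage-like and neutrophil-like cells, whereas the level of *Hey1* was highest in endothelial-like and that of *Heyl* in mural cells.

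*Hes1* (ENSMUSG00000022528, chromosome 16, 30064384 to 30067796, plus strand) stood at 375, 313, 373 and 370 CPM in smooth muscle or pericyte-like cells (358 ± 29.7), where it overlapped with glial-like cells (333 CPM). Myogenic-like cells had 170, 159, 205 and 184 CPM (179 ± 19.7). Macrophage-like (38.9) and neutrophil-like cells (19.1) lay below all libraries of the other classes, but the neutrophil-like level rests on 3, 1, 4 and 1 UMIs.

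*Hey1* (ENSMUSG00000040289, chromosome 3, 8663359 to 8667256, minus strand) was measured at 74.3, 58.8, 69.6 and 67.5 CPM in endothelial-like cells (67.5 ± 6.47). Myogenic-like cells followed at 22.0 ± 1.52 CPM, next to the *Ccl11* cluster (20.9), with overlapping ranges. *Heyl* (ENSMUSG00000032744, chromosome 4, 123233556 to 123249875, plus strand) was at 106, 123, 108 and 108 CPM in smooth muscle or pericyte-like cells (111 ± 7.95), ahead of the *Ccl11* cluster (55.1 ± 9.19) and myogenic-like cells (27.6, 27.3, 27.5 and 23.1 CPM). Endothelial-like cells, the highest class for *Hey1*, had 3.55 CPM of *Heyl*. By share of UMIs the more numerous myogenic-like cells held 33.5 ± 3.69% of *Hey1*, ahead of endothelial-like cells (21.3 ± 2.63%), and 31.1 ± 2.07% of *Heyl*, next to smooth muscle or pericyte-like cells (33.2 ± 2.26%).

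**Figure D2:**
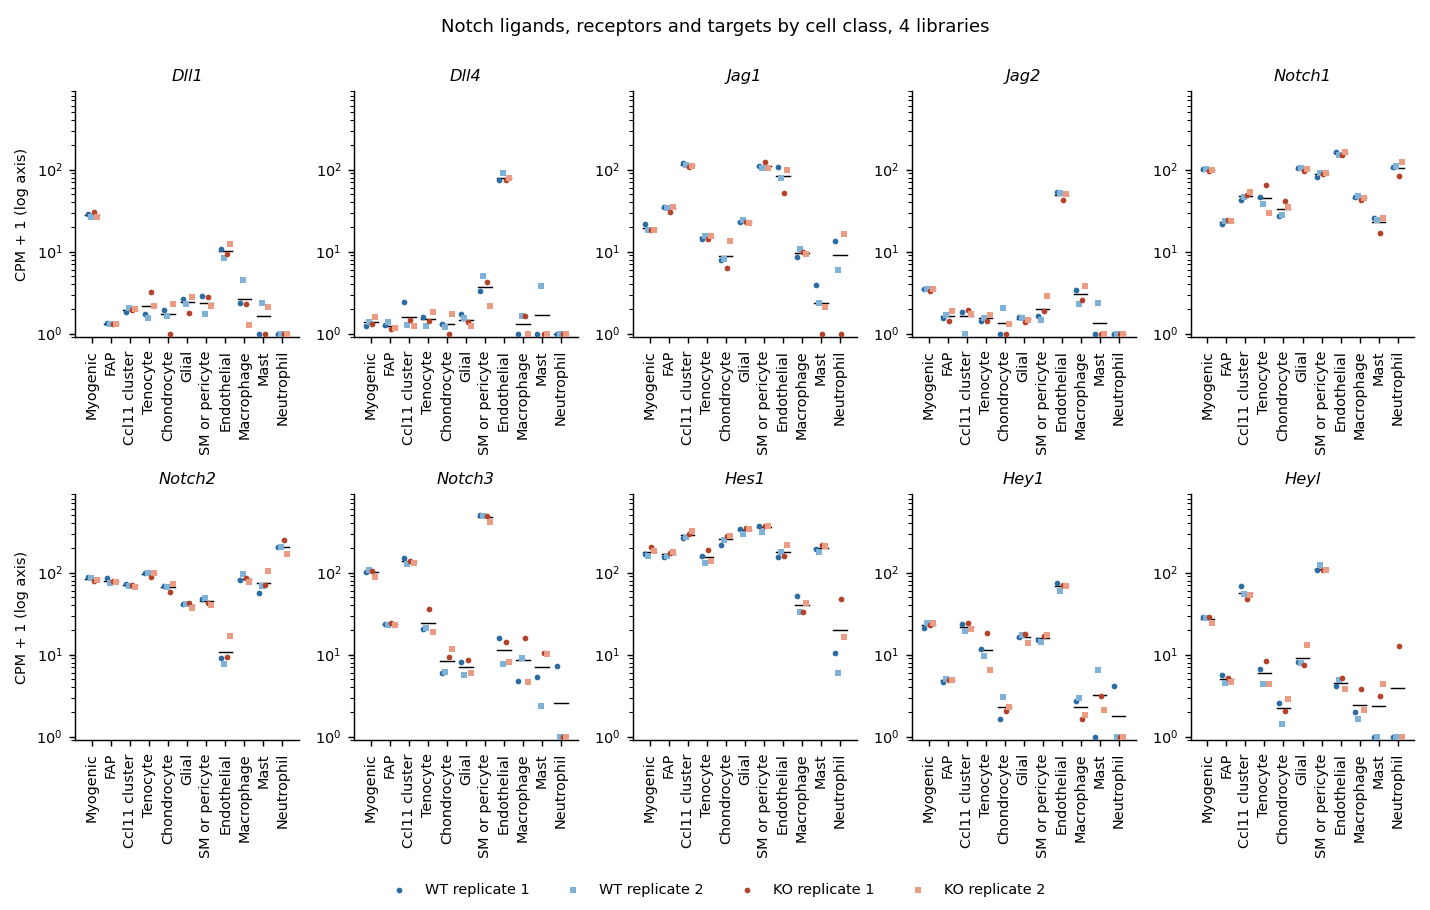
CPM + 1 (log axis) of each gene in 10 named cell classes and the *Ccl11* cluster, with 1 point per library (blue WT, red KO) and a line at the mean. *Dll4* and *Jag2* stand out in endothelial-like cells, *Notch3* and *Heyl* in smooth muscle or pericyte (SM or pericyte) cells, and *Dll1* in myogenic-like cells.

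Among the named endothelial sub-clusters, the levels of *Dll4*, *Jag1*, *Jag2*, *Hey1* and *Notch1* were highest in arterial-like cells. Endothelial-like cells were divided into arterial-like (212), capillary-like (154), cycling (267) and unnamed cells (694), and mural cells into smooth muscle-like (255), pericyte-like (556), cycling (254) and unnamed cells (634). The members were not used for this division. Levels here are descriptions without a test. None are given for the unnamed cells, which included endothelial sub-clusters with venous markers.

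*Dll4* stood at 153, 172, 157 and 171 CPM in arterial-like cells, against 82.8 ± 25.9 CPM in capillary-like and 59.7 ± 10.3 CPM in cycling cells. *Jag1* differed more, with 513, 364, 235 and 604 CPM in arterial-like cells and 8.89 ± 4.04 CPM in capillary-like cells. Within the arterial-like group the libraries of *Jag1* were far apart, with KO replicate 1 lowest and KO replicate 2 highest.

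*Jag2* (146 ± 23.5 against 26.0 ± 11.8 CPM), *Hey1* (256 ± 27.7 against 30.1 ± 14.2 CPM) and *Notch1* (278 ± 3.97 against 127 ± 43.4 CPM) were also higher in arterial-like than in capillary-like cells, with no overlap between libraries. *Hes1* was not, at 137 ± 45.8 against 190 ± 37.4 CPM with overlapping ranges. *Notch2* and *Notch3* averaged at most 3.12 CPM in the 3 named endothelial sub-clusters, below the 9.78 and 10.5 CPM of the whole class. Its unnamed cells included sub-clusters led by *Rgs5* and *Acta2* (47 cells) and by *Col1a1* and *Dcn* (75 cells), and their part in the class level was not tested. *Notch3* itself, *Actc1*, *Myog* and *Ttn* were also among the leading genes of the former. In the whole class the 10 myogenic markers summed to 30.9, 21.5, 91.9 and 121 CPM, higher in both KO libraries. Their part in the KO against WT values was not tested.

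On the mural side, *Notch3* was higher in smooth muscle-like cells (574, 619, 684 and 554 CPM) than in pericyte-like cells (378, 352, 354 and 311 CPM). *Jag1* was separated in the same direction, at 245 ± 30.2 against 42.0 ± 12.3 CPM. *Notch1* was separated in the opposite one, at 43.5 ± 5.44 CPM in smooth muscle-like and 105 ± 9.18 CPM in pericyte-like cells. *Heyl* did not differ beyond its spread (116 ± 24.1 and 118 ± 13.2 CPM).

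**Figure D3:**
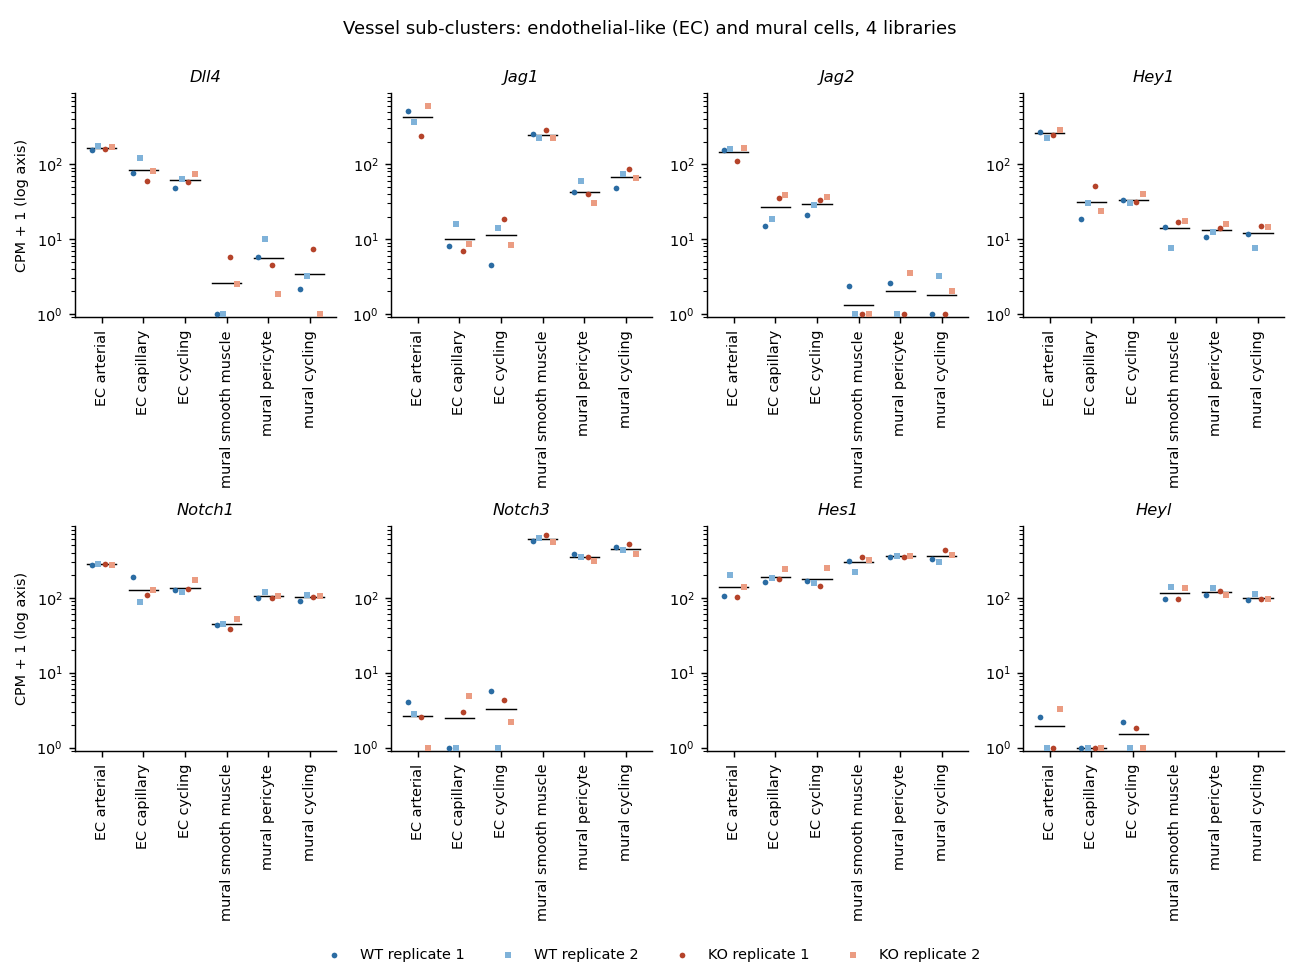
CPM + 1 (log axis) of 8 genes in sub-clusters of endothelial-like (EC) and mural cells, with 1 point per library (blue WT, red KO) and a line at the mean. *Jag1* averages 429 CPM in arterial-like and 8.89 CPM in capillary-like cells, and *Notch3* and *Heyl* are near 0 in the EC sub-clusters.

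The 6719 myogenic-like cells were then ordered by stage to see where along differentiation ligand, receptor and target transcripts changed. Progenitor-like cells (3515) had 126 to 151 CPM of *Pax7* and at most 50.8 CPM of *Myog*, and myoblast-like cells (1242) had at most 10.6 CPM of *Pax7* and at least 3150 CPM of *Myog*. Cycling cells (1885) had at least 490 CPM of *Mki67*, beside 105 to 120 CPM of *Pax7* and 290 to 357 CPM of *Myog*. Myotube-like cells, with at least 19049 CPM of the skeletal actin gene *Acta1*, numbered only 25, 11, 13 and 28. Stages were compared with edgeR's quasi-likelihood test with the library as a block. They were defined by other genes of the same cells, so their calls are common: of 12415 genes, 30.4% were higher and 32.9% were lower in myoblast-like than in progenitor-like cells. Libraries were scaled by TMM factors, and with RLE factors, another correction for composition, these shares were 22.9% and 41.2%. Of the 10 members 9 passed the filter on low counts, all but *Dll4*, and of these 2 were called higher and 5 lower. Their median log2 change was −1.83, beside −0.02 over all genes tested.

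*Notch3* showed the largest fall among the members. It went from 154, 156, 153 and 128 CPM in progenitor-like cells through 98.3 ± 13.6 CPM in cycling cells to 4.84, 2.34, 4.90 and 6.20 CPM in myoblast-like cells. The log2 change between progenitor-like and myoblast-like cells was −4.86 (SE 0.15, edgeR adjusted p = 1.88e-23), with no overlap between the libraries of the stages. *Notch2* was not called, at 96.0, 87.0, 87.5 and 80.0 CPM in progenitor-like and 77.5, 97.5, 67.2 and 80.8 CPM in myoblast-like cells (log2 change 0.01, SE 0.08, edgeR adjusted p = 0.903), and its direction flipped to −0.14 with RLE in place of TMM scaling (SE 0.08, adjusted p = 0.156).

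*Notch1* stood at 101, 99.1, 91.2 and 95.0 CPM in progenitor-like cells and at 105, 104, 101 and 94.0 CPM in myoblast-like cells, with overlapping ranges. Its log2 change of 0.19 (SE 0.08, edgeR adjusted p = 0.0333) was called but small, and it was 0.05 with RLE scaling (adjusted p = 0.630). The call was also lost without WT replicate 2 (adjusted p = 0.0629) and without KO replicate 1 (adjusted p = 0.134).

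All 3 targets fell. *Hes1* was at 212, 209, 261 and 240 CPM in progenitor-like cells and at 54.6, 48.8, 73.2 and 60.1 CPM in myoblast-like cells (log2 change −1.83, SE 0.09, edgeR adjusted p = 3.03e-18). *Hey1* fell from 31.8 ± 4.64 to 5.25 ± 1.18 CPM (−2.48, SE 0.17, adjusted p = 6.46e-14). *Heyl* fell from 38.7 ± 4.27 to 8.55 ± 1.31 CPM (−2.05, SE 0.13, adjusted p = 9.63e-15). The libraries of both stages did not overlap for any of the targets.

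The ligands moved in opposite directions. *Dll1* rose from 17.3, 12.5, 13.9 and 15.9 CPM to 69.2, 62.8, 87.6 and 59.1 CPM (log2 change 2.35, SE 0.11, edgeR adjusted p = 2.96e-18). *Jag1* fell from 26.8, 23.8, 22.4 and 23.2 CPM to 6.57, 3.50, 5.44 and 4.39 CPM (−2.15, SE 0.17, adjusted p = 5.63e-13). *Jag2* was low in both stages, at 2.42 ± 0.163 and 2.76 ± 0.929 CPM, and was not called (0.31, SE 0.31, adjusted p = 0.393). *Dll4* averaged at most 0.570 CPM in every stage.

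The 7 changes called between progenitor-like and myoblast-like cells kept their direction relative to the median of all genes, which was subtracted without a further test. That median was −0.02 with TMM and −0.17 with RLE scaling, and the called members other than *Notch1* kept their direction and call with both. A split of the myogenic-like class by UMIs in place of sub-clusters gave the same order: in cells with a *Pax7* and no *Myog* UMI against cells with a *Myog* UMI, *Notch3* averaged 153 and 20.1 CPM, *Dll1* 10.2 and 56.5 CPM, *Hes1* 227 and 86.9 CPM, and *Jag1* 24.9 and 7.35 CPM. *Hey1* (32.3 and 7.48 CPM) and *Heyl* (35.4 and 12.2 CPM) did likewise.

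Markers of other cell types moved with some of these changes. The 10 FAP markers summed to 995 to 1093 CPM in progenitor-like and 313 to 375 CPM in myoblast-like cells, with none at 0 in all libraries. The 9 glial markers likewise summed to 214 to 235 and 66.1 to 82.9 CPM, and the 10 endothelial markers to 82.1 to 99.8 and 55.0 to 56.7 CPM. Their part in the changes was not tested. Glial-like cells held 333 CPM of *Hes1*, above progenitor-like cells. FAP-like cells themselves held 22.5 CPM of *Notch3*, 3.89 CPM of *Hey1*, 3.99 CPM of *Heyl* and 166 CPM of *Hes1*, below progenitor-like cells. Their *Jag1* level of 32.6 CPM was above that of progenitor-like cells. The *Ccl11* cluster, which also carried FAP markers, held 288 CPM of *Hes1*, 55.1 CPM of *Heyl* and 113 CPM of *Jag1*, above progenitor-like cells. Its *Hey1* (20.9 CPM) was below theirs, and its *Notch3* (137 CPM) overlapped with theirs. The 11 smooth muscle or pericyte markers summed to 789 to 882 CPM in progenitor-like and 910 to 959 CPM in myoblast-like cells. Among them *Rgs5* was lower in myoblast-like cells, at 0.774 to 3.46 CPM against 3.68 to 6.51 CPM in progenitor-like cells. *Myh11* stood at 0.362 to 1.88 CPM in progenitor-like and 0 to 0.692 CPM in myoblast-like cells. *Kcnj8* stood at no more than 0.441 and 0.346 CPM in these stages. The part of mural cells in the changes was not tested.

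Cycling cells lay between both stages for the falling genes. Their *Pax7* and *Myog* levels also lay between those of both stages, and the part of a mix of cells was not tested. Against progenitor-like cells, with 22.3% of all genes called higher and 24.1% lower, *Dll1* was higher (log2 change 0.35, SE 0.13, edgeR adjusted p = 0.0247) and 5 members were lower. The largest of these falls were those of *Heyl* (−0.85, SE 0.10), *Hey1* (−0.64, SE 0.12) and *Notch3* (−0.57, SE 0.08). *Hes1* (−0.28, SE 0.07) and *Jag1* (−0.33, SE 0.11) changed less, and with DESeq2 neither these nor *Dll1* was called, which left 3 calls in place of 6. *Dll1* was also not called without WT replicate 2 (adjusted p = 0.0976) or without KO replicate 1 (adjusted p = 0.0589), whereas *Notch2* was called lower without KO replicate 2 (−0.19, adjusted p = 0.0376).

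In myotube-like cells the order was partly turned around. Against myoblast-like cells, with 12.0% of all genes called higher and 18.0% lower and a median of −0.31 over all genes, 2 members were called higher and 3 lower. With RLE scaling 13.9% of all genes were higher and 13.3% lower, with a median of −0.16. *Dll1*, the rising ligand of myoblast-like cells, had 2 UMIs in the 77 myotube-like cells beside 966 in myoblast-like cells, a ratio of CPM of 0.0406 (exact 95% interval 0.00491 to 0.147, counting error only). *Notch1* was at 38.7, 0, 80.1 and 29.3 CPM (log2 change −1.30, SE 0.28, edgeR adjusted p = 0.000489) and *Notch2* at 38.7, 27.3, 43.7 and 41.0 CPM (−0.93, SE 0.28, adjusted p = 0.0122). Relative to the median of all genes these changes were −0.99 and −0.62. Without KO replicate 2, which held 28 of the cells, *Notch2* was no longer called (adjusted p = 0.0717).

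*Heyl* stood at 38.7, 27.3, 29.1 and 26.3 CPM in myotube-like cells, above the myoblast-like range of 6.71 to 9.79 CPM, although on 21 UMIs in all (log2 change 1.94, SE 0.39, edgeR adjusted p = 0.000218). *Hes1* was at 187, 13.6, 94.6 and 99.5 CPM with WT replicate 2 below myoblast-like levels (0.95, SE 0.24, adjusted p = 0.00264), and without WT replicate 1 the change was 0.58 and not called (adjusted p = 0.120). The FAP markers summed to 1179, 314, 415 and 611 CPM in the same cells, and *Pdgfra* was at 0. The highest library was thus the same for *Hes1* and for the FAP list. The 9 glial markers summed to 264, 123, 189 and 357 CPM, above myoblast-like cells in every library, with KO replicate 2 highest. The 10 endothelial markers, at 41.0 to 80.1 CPM, spanned the myoblast-like range. The 11 smooth muscle or pericyte markers summed to 2384, 1841, 2257 and 2071 CPM, above myoblast-like cells in every library, so this list was higher where *Heyl* was higher, and its part in the change was not tested. Of these, *Myh11*, *Cnn1* and *Kcnj8* were at 0, and *Rgs5* was found in WT replicate 1 alone (25.8 CPM), the library with the highest *Heyl*. The part of other cells in these values was not tested.

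**Figure D4:**
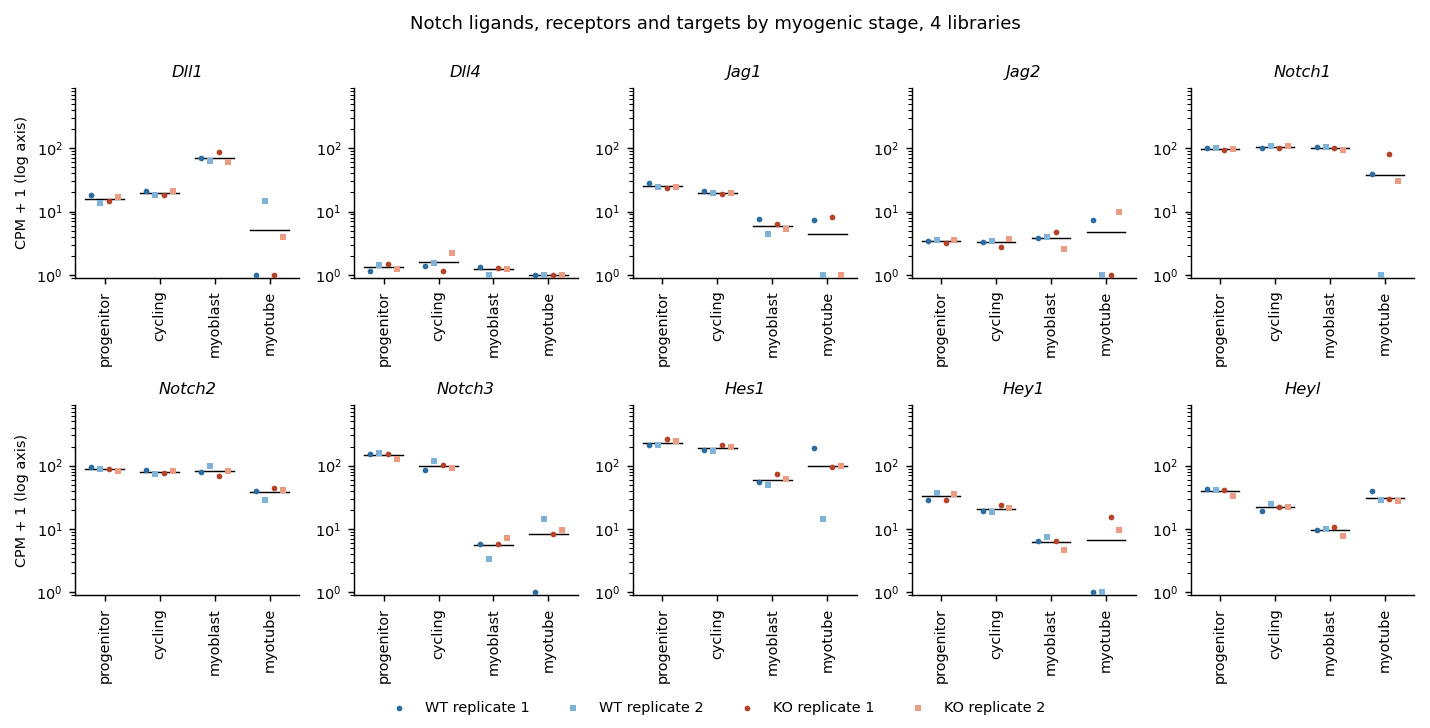
CPM + 1 (log axis) of each gene in 4 stages of myogenic-like cells, with 1 point per library (blue WT, red KO) and a line at the mean. *Notch3* averages 148 CPM in progenitor-like and 4.57 CPM in myoblast-like cells, *Dll1* 14.9 and 69.7 CPM, and the 4 libraries lie close together except in myotube-like cells.

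Of the 43 further pathway genes, 36 could be tested along the stages, and between progenitor-like and myoblast-like cells 10 were higher, 13 were lower and 13 were not called (median −0.12, beside −0.02 over all genes). These are shares near the 30.4% and 32.9% over all genes. Among the 6 most abundant of them, *Dlk1*, a non-canonical ligand, fell (log2 change −1.10, SE 0.12, edgeR adjusted p = 7.65e-10). *Rbpj*, the nuclear partner of the receptors, rose by 0.90 (SE 0.06), as did *Mib1* (0.56, SE 0.08) and *Itch* (0.46, SE 0.07), which encode ubiquitin ligases, and *Snw1* (0.35, SE 0.07), a transcriptional coregulator. *Psenen*, a subunit of gamma-secretase, was not called (0.02, SE 0.08, adjusted p = 0.797).

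Larger changes, picked after the values were seen, included the ligand gene *Dner* (3.06, SE 0.15) and *Hes6* (1.71, SE 0.08), an antagonist of *Hes1*, among those that rose. The fringe gene *Lfng* (−2.32, SE 0.19), the coactivator gene *Maml2* (−2.21, SE 0.15) and the Deltex gene *Dtx4* (−3.83, SE 0.16) were among those that fell. All 5 had an edgeR adjusted p below that of *Dlk1*. In cycling against progenitor-like cells 6 of the 36 were higher and 14 lower (median −0.15, beside −0.03 over all genes, of which 22.3% were higher and 24.1% lower), and in myotube-like against myoblast-like cells 2 were higher and 12 lower (median −0.77, beside −0.31 over all genes, of which 12.0% were higher and 18.0% lower). *Rbpj* turned, with a log2 change of −1.42 (SE 0.17, adjusted p = 4.62e-08) from myoblast-like to myotube-like cells, as did *Dlk1* with 0.97 (SE 0.15, adjusted p = 3.35e-06).

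The genotypes were compared last, library against library. No member was called between KO and WT in any class or stage at an edgeR adjusted p of 0.05, and DESeq2 also called 0. Tests covered 10 members in FAP-like and endothelial-like cells, 9 in myogenic-like cells, 8 in smooth muscle or pericyte-like cells, 7 each in tenocyte-like and glial-like cells and the *Ccl11* cluster, 5 each in chondrocyte-like and macrophage-like cells and 3 in mast-like cells. Neutrophil-like cells were too few to be tested. In the stages 9 members were tested each, but only *Hes1* in myotube-like cells.

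Calls were rare over all genes too. They made up 0.0321% of genes in smooth muscle or pericyte-like cells, 0.00853% in endothelial-like cells, 0.113% in mast-like cells and 0% in the other classes and all stages. An unadjusted p under 0.05 was found for 3.51% of all genes in myogenic-like, 2.69% in FAP-like, 1.25% in tenocyte-like, 3.45% in chondrocyte-like, 3.55% in glial-like, 4.54% in smooth muscle or pericyte-like, 3.45% in endothelial-like, 4.34% in macrophage-like and 6.91% in mast-like cells, and for 5.28% in the *Ccl11* cluster. By stage the share was 3.59% in progenitor-like, 3.85% in cycling, 4.19% in myoblast-like and 6.37% in myotube-like cells.

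*Hes1* was the member with an unadjusted p under 0.05 in most fits. In myogenic-like cells both KO libraries (205 and 184 CPM) lay above both WT libraries (170 and 159 CPM), a difference of 0.28 on the log2 scale (SE 0.08, adjusted p = 0.971 with edgeR). The change was 0.34 without KO replicate 2. In progenitor-like cells it was 0.29 (SE 0.08), in cycling cells 0.26 (SE 0.08), in myoblast-like cells 0.39 (SE 0.14), in FAP-like cells 0.19 (SE 0.06) and in the *Ccl11* cluster 0.23 (SE 0.09), with adjusted p between 0.927 and 1.000. Classes not under 0.05 mostly had the same sign. *Hes1* changed by 0.25 (SE 0.11) in chondrocyte-like, 0.21 (SE 0.15) in mast-like and 0.19 (SE 0.19) in tenocyte-like cells. The change was 0.18 (SE 0.14) in endothelial-like, 0.13 (SE 0.09) in smooth muscle or pericyte-like and 0.12 (SE 0.09) in glial-like cells. It was −0.14 (SE 0.25) in macrophage-like and −0.28 (SE 0.69) in myotube-like cells. These fits share libraries, and the stages are parts of the myogenic-like cells, so they do not count as separate evidence. Separation of the libraries by genotype was not particular to *Hes1*. In myogenic-like cells *Notch1*, *Notch2*, *Jag1* and *Jag2* were separated too, with KO lower. How many of all genes were separated in this way was not counted.

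The other members under 0.05 before adjustment were *Dll4* in FAP-like cells (log2 fold change −1.06, SE 0.42, on 45 UMIs), and *Notch1* (0.41, SE 0.17) and *Notch3* (0.99, SE 0.32) in chondrocyte-like cells, where KO replicate 1 had 109 cells. All had an edgeR adjusted p of 1.000.

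No ligand was called in the class where it was highest. *Dll1* in myogenic-like cells changed by 0.10 (SE 0.10, edgeR adjusted p = 0.971), *Dll4* in endothelial-like cells by −0.09 (SE 0.12, adjusted p = 0.999) and *Jag2* there by −0.17 (SE 0.13). *Jag1* changed by −0.07 (SE 0.10) in the *Ccl11* cluster, by 0.10 (SE 0.10) in smooth muscle or pericyte-like and by −0.10 (SE 0.12) in myogenic-like cells. For *Jag2* in myogenic-like cells the change was −0.03 (SE 0.24).

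No receptor was called either. *Notch1* changed by 0.01 (SE 0.10) in endothelial-like and −0.02 (SE 0.07) in myogenic-like cells, *Notch2* by −0.05 (SE 0.11) in tenocyte-like and −0.08 (SE 0.08) in myogenic-like cells, and *Notch3* by −0.13 (SE 0.08) in smooth muscle or pericyte-like and −0.08 (SE 0.09) in myogenic-like cells. The *Notch3* value in myogenic-like cells rested on KO replicate 2, without which it was 0.02. Of the targets, *Hes1* changed by 0.13 (SE 0.09) and *Heyl* by −0.06 (SE 0.10) in smooth muscle or pericyte-like cells, and *Hey1* by 0.06 (SE 0.13) in endothelial-like cells. In myogenic-like cells *Hey1* changed by 0.09 (SE 0.11) and *Heyl* by −0.08 (SE 0.10).

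Leaving out KO replicate 2, the library with few Y-linked transcripts, left 1 KO library. It enlarged the changes of *Jag1* in endothelial-like and of *Notch3* in tenocyte-like cells. Calls over all genes became more common with any library left out, so only effect sizes are given for such fits here. *Jag1* in endothelial-like cells changed by −0.83 in place of −0.30 (SE 0.26, edgeR adjusted p = 0.999), and by 0.11 without KO replicate 1. There KO replicate 1 stood at 51.2 CPM, below both WT libraries, and KO replicate 2 at 98.3 CPM between them. *Notch3* in tenocyte-like cells (19.5, 20.0, 35.5 and 17.9 CPM) changed by 0.88 in place of 0.42 (SE 0.31), and by −0.12 without KO replicate 1. Both enlarged changes rest on KO replicate 1 as the only KO library, and KO replicate 2 did not show them.

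**Figure D5:**
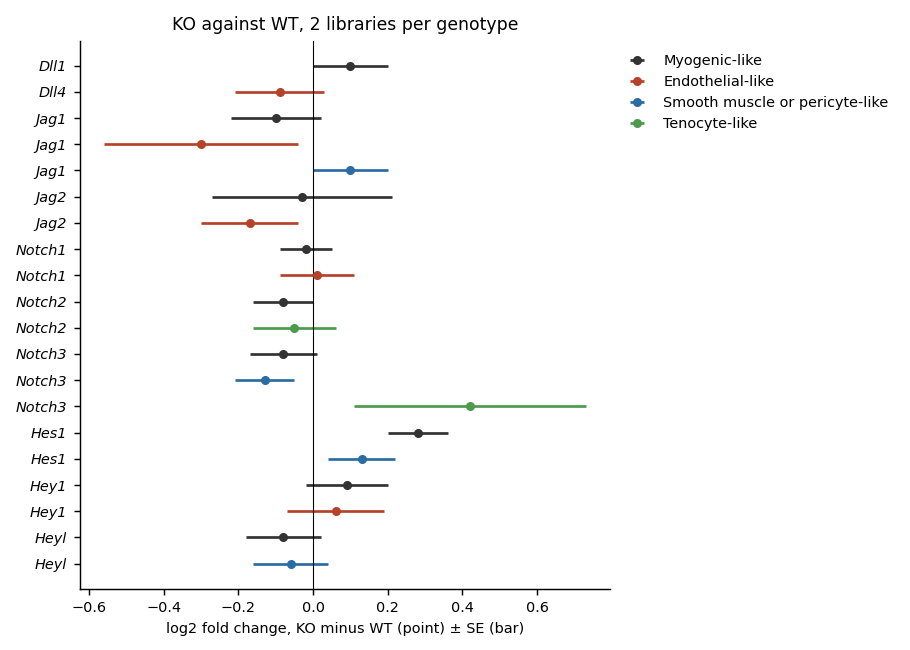
Log2 fold change of KO against WT (point) with its SE (bar), from 2 libraries per genotype. Each tested gene is shown in myogenic-like cells and in its highest named class that was tested, which leaves out the *Ccl11* cluster. *Jag1* is also shown in endothelial-like and *Notch3* in tenocyte-like cells. *Notch3* in tenocyte-like cells lies farthest to the right, at 0.42 with a wide bar, *Hes1* in myogenic-like cells is at 0.28, and none passed the adjusted threshold.

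The KO effect was also compared between progenitor-like and myoblast-like cells by an interaction term. It was called for 0 of 9 members and for 0% of 12652 genes, while 3.57% of genes and 1 member, *Notch3*, had an unadjusted p under 0.05. In progenitor-like cells both KO libraries of *Notch3* (153 and 128 CPM) lay below both WT libraries (154 and 156 CPM), KO replicate 1 only narrowly, and in myoblast-like cells the libraries read 4.84 and 2.34 against 4.90 and 6.20 CPM, on 64 UMIs. The interaction was 0.80 (SE 0.37, edgeR adjusted p = 1.00), and it ranged from 0.31 without WT replicate 2 to 1.39 without WT replicate 1. In progenitor-like cells the libraries of *Notch1*, *Jag1* and *Hes1* were separated by genotype as well, for *Hes1* with KO higher.

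Of the 43 further genes 0 were called by edgeR in 349 class tests, 112 stage tests and 37 interaction tests, with 0 to 2 of them per fit at an unadjusted p under 0.05. DESeq2 called 0 in the stage and interaction tests and 1 in the class tests, which was *Dlk1* in mast-like cells (named after its value was seen). In that class edgeR gave a log2 difference of 1.35 with an SE of 0.22 and an adjusted p of 0.103.

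Finally, the genes most like each member were listed, by Pearson correlation of log2(CPM + 1) over the 40 sums of a named class in a library, among the 9639 genes that averaged 10 CPM or more. The points share libraries and class composition, so the values are descriptions. *Dll4* was most like *Robo4* (0.965), *Zfp366* and *Emcn*, and *Jag2* was most like *Zfp366* (0.960), *Robo4* and *Rasip1*, and *Robo4*, *Emcn* and *Rasip1* are known from endothelium. *Notch3* came with *Ppp1r14a* (0.933), *Tpm1* and *Tpm2*, genes known from the contractile apparatus of smooth muscle.

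*Heyl* was nearest to *Tagln* (0.894), *Map3k7cl* and *Synpo2* (0.858), the host gene of *SYISL*. *Dll1* was most like *Cnot6l* (0.862), *Zbtb18* and *Mrln*, and *Hey1* most like *Col4a1* (0.900), *Col18a1* and *Rgs16*. For the broad genes the nearest were *Gpc4*, *Tmem98* and *Immp1l* for *Hes1* (0.926 at most), *Clk1*, *Sde2* and *Pnrc1* for *Notch2* (0.899), *Fabp5* and *Zdhhc17* for *Jag1* (0.888), and *Lrch1*, *Dcbld1* and *Rasa3* for *Notch1* (0.837).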

How the data were processed

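Single-cell RNA sequencing (10x Genomics Chromium 3′ v3) was carried out on leg muscle suspensions in 4 libraries, 2 of WT and 2 of KO fetuses. Per the labels, the authors used Cell Ranger 7.2.0 and mm10, and the deposited values are UMI counts without normalization. Intronic reads are counted by default in this version, but the setting chosen is not given in the sources used here. Following the study, cells were required to have 1000 to 6000 genes, 1000 to 25000 UMIs and a mitochondrial share below 8%. Doublets were left in. Scrublet marked 1.65 to 2.56% of the kept cells per library, and their removal was an alternative.

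Counts were scaled to 10000 UMIs per cell, log-transformed and clustered with Leiden at resolution 0.3 on 3000 variable genes without the pathway genes, with 30 principal components and 20 neighbors (scanpy 1.11.5, igraph 0.11.9). A class needed at least 3 markers, and at least 50% of its list, at 2-fold over all other cells and detected in 10% of the cluster. FAP-like clusters were named from the level of FAP markers. Stages were named from markers at 1.5-fold in sub-clusters at resolution 0.3, and vessel cells were sub-clustered at 0.8. The naming rules and the vessel resolution were set after the data were seen. The members, gene lists and tests were chosen with earlier results of these data known. All members were named, with the KO fold change in the highest named class tested and in myogenic-like cells, the 6 most abundant of the further pathway genes, and the 3 genes most like each member, of which 1 is not reported here.

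UMIs were summed per library and class or stage and tested with edgeR 4.0.16 in R 4.3.3 (quasi-likelihood test, TMM, filterByExpr, Benjamini-Hochberg adjustment over all genes tested, threshold 0.05). A class was tested where each library held at least 50 of its cells, a limit that was not applied to stages. The SE was taken from the F statistic. DESeq2 1.42.0, RLE factors, no filter, other clusterings and cell filters, the replicate block and the omission of single libraries were tried as alternatives. The scripts were tested on simulated data. Intervals cover counting error only.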

Additional observations from a re-analysis of the deposited data

How the results depend on the processing

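Of the 10 genes, the higher of the progenitor-like and myoblast-like stages held for 10 under both other stage definitions. Among the named classes that were tested, which leave out neutrophil-like cells and the *Ccl11* cluster, the highest class held for 10 under each alternative but centring, where it held for 9 and *Notch2* was highest in macrophage-like in place of tenocyte-like cells. With centring, resolution 1 or loose filters, neutrophil-like cells and the *Ccl11* cluster were not classes of their own. Of the fold changes named above 532 alternatives kept direction and call, 29 reversed, 12 lost and 3 gained a call. Shares of cells with a UMI scale with depth, and those given here moved both without thinning and when thinned to 1000 UMIs. The level of each gene in its highest tested class moved by less than the SD over libraries in 77 alternatives and by more in 3, while stage levels moved further (*Notch3* in progenitor-like cells from 148 to 194 CPM at a sub-clustering resolution of 0.8). No member was called between KO and WT in a class or stage under any alternative, except when a library was left out (0 to 2 calls in the classes). Over all genes the counts moved more. The class comparison gave 13 calls, against 37 with DESeq2, 6 with RLE factors, 568 without a filter, 27 with each library centred, 26 at resolution 1, 4 with loose cell filters and 205 to 254 with a library left out. The stage comparison gave 0, against 53 without a filter and 52 to 392 with a library left out, and the interaction gave 0, against 7 without a filter, 2 with Scrublet calls removed and 5 to 17 with a library left out. DESeq2 called 3 members in place of 6 in cycling cells. For each of these the cause was not tested.

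Replicate numbers were not treated as pairs, because the labels do not tie them to a litter or day and correlations of same-numbered deviations were 0.0293 to 0.372 over classes. With the replicate block, 260 genes were called in the classes, 23 in the stages and 0 members in either.

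Small changes between KO and WT reversed as follows. *Notch1* in endothelial-like cells was −0.00 with centring and −0.07 with loose filters, *Notch2* in tenocyte-like cells 0.01 with centring, *Jag2* in myogenic-like cells 0.01 and *Hey1* in endothelial-like cells −0.01 with loose filters. *Notch2* in myoblast-like against progenitor-like cells was −0.14 with DESeq2 and with RLE factors and −0.01 without a filter. With each library left out in turn, myogenic-like cells ranged from −0.05 to 0.01 (*Notch1*), −0.19 to 0.02 (*Notch3*), −0.22 to 0.04 (*Jag1*), −0.10 to 0.04 (*Jag2*), −0.01 to 0.20 (*Hey1*) and −0.19 to 0.03 (*Heyl*), and endothelial-like cells from −0.07 to 0.10 (*Notch1*), −0.21 to 0.05 (*Dll4*), −0.11 to 0.25 (*Hey1*) and −0.83 to 0.11 (*Jag1*). Smooth muscle or pericyte-like cells ranged from −0.00 to 0.20 (*Jag1*), −0.00 to 0.28 (*Hes1*) and −0.15 to 0.05 (*Heyl*), and tenocyte-like cells from −0.11 to 0.02 (*Notch2*) and −0.12 to 0.88 (*Notch3*). By stage, *Notch2* from progenitor-like to myoblast-like cells ranged from −0.09 to 0.10, *Jag1* and *Jag2* from myoblast-like to myotube-like cells from −1.33 to 0.17 and −0.13 to 1.64, and *Jag2* from progenitor-like to cycling cells from −0.13 to 0.03.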

Other observations

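The levels have limits that no setting removes. Myotube-like cells numbered 77, so every value in them rests on few UMIs, and 1 UMI in WT replicate 2 amounted to 13.6 CPM there. In neutrophil-like cells, 21 and 18 cells were kept in the KO libraries, and 3 UMIs in the smallest library amounted to 45.8 CPM, so a level under this rested on fewer than 3 UMIs in it. Replicate and sex-linked pattern cannot be told apart within the KO group, which holds 1 library of each pattern. The pattern of KO replicate 2 was seen in no WT library. It is thus unbalanced between genotypes, and its part in the KO against WT values was not tested.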
